A study of Mus musculus with 16 samples.

Results

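CCR2+ heart macrophages were compared with MHC-IIlo heart macrophages on single-colour Agilent mouse arrays. The 8 arrays were those titled CCR2+ Mac, 4 in number, and those titled MHC-IIlo Mac, also 4 in number, out of 16 arrays in all. Every sample came from C57BL/6 mice without any treatment, and hearts were minced and digested before live, DAPI-negative cells were sorted. Both macrophage gates asked for CD45, MerTK and CD64 and left out cells with Ly6c. CCR2+ macrophages had in addition to be CCR2Hi and MHCIIHi. MHC-IIlo macrophages had to be CCR2Neg, CD11cNeg and MHCII low, so the groups differ by CCR2, by MHC class II and, on the MHC-IIlo side, by the absence of CD11c. The other 8 arrays hold another heart gate, MHC-IIHi macrophages (CCR2Neg, MHCIIHi, CD11cLow), and Ly6cHi monocytes of blood, with 4 arrays each. Ages, sexes and the number of mice behind an array are not given in the sources used here, nor whether replicates came from separate mice, so p-values measure the spread between these samples, which may be technical.

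Macrophages of the heart clear dying cells and debris, take up iron and lipoproteins, and show peptides to helper T cells on MHC class II molecules. CCR2 is the receptor for the chemokine CCL2 and lets monocytes leave the bone marrow, and heart macrophages that carry it are replaced from blood monocytes, whereas most CCR2-negative heart macrophages maintain themselves in the tissue. MHC class II genes share a promoter built from conserved elements (the S, X and Y boxes) on which the coactivator CIITA assembles.

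A level below is the log2 processed signal of a gene's probe minus the 75th percentile of its array, so 0 is that percentile, and levels of different genes are not compared. Differences are log2 levels, CCR2+ minus MHC-IIlo, ± SE from limma with n = 4 arrays per group, and means carry ± SD over 4 arrays. Between 58.5% and 69.3% of the spots on the 8 arrays were well above background, and the number of arrays limits the precision. On each of the 4 slides there was 1 array per group, with the replicate number equal to the slide, and array positions were fixed per group, so the effects of position and of group cannot be told apart. Slides 2 and 4 had 67.1% to 69.3% of spots well above background on these arrays, and slides 1 and 3 had 58.5% to 62.4%. In bulk RNA, fewer cells of a type and less RNA per cell cannot be told apart.

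Of 22011 genes and unnamed features tested, limma called 607 at an adjusted p under 0.05, which is 2.76% of those tested. Of these, 326 (1.48%) were higher in CCR2+ macrophages and 281 (1.28%) were lower. With the slide as a block 1255 were called (5.7%), 619 higher (2.81%) and 636 lower (2.89%), and 604 of the 607 were among them. The 4 CCR2+ arrays and the 4 MHC-IIlo arrays did not overlap for 596 of the 607 genes, against 8.25% of all genes tested. The difference had 1 sign on 4 of 4 slides for 604 of them, against 32.5% of all genes tested. Both counts are nearly fixed by the call itself and are no further support for it. By more than 2 on the log2 scale, 114 genes were higher and 69 lower. When each of the 8 arrays was left out in turn, 322 of the 607 were called every time, 181 higher and 141 lower. The median difference of all genes tested was -0.04.

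Transcripts of the sort markers are a check of the labels. Ccr2 stood at 0.81, 0.57, 0.37 and 0.50 on the CCR2+ arrays, against -4.08, -3.77, -4.81 and -2.98 on the MHC-IIlo arrays, where 1 of 4 was well above background. Itgax, which encodes CD11c, stood at 2.77, 0.86, 1.40 and 0.80 in CCR2+ macrophages, against -1.18, -1.77, -2.94 and -3.59 in MHC-IIlo macrophages (difference 3.83 ± 0.55, adjusted p = 0.000811). Every CCR2+ array was above every MHC-IIlo array for both genes. Mertk averaged 2.06 ± 0.63 in CCR2+ and 2.71 ± 0.41 in MHC-IIlo macrophages (adjusted p = 0.631), and Fcgr1, which encodes CD64, averaged 3.08 ± 0.23 and 2.89 ± 0.14 in the same order (adjusted p = 0.829). These macrophage markers were well above background on all 8 arrays. Of 9 gate transcripts tested 7 were higher in CCR2+ macrophages and 0 lower, 4 of them in the fit to the 8 arrays alone. Besides Ccr2, Itgax and the class II chains they were Ptprc, which encodes CD45 (0.91 ± 0.19, adjusted p = 0.0131), and Ly6c1 (1.20 ± 0.28, adjusted p = 0.0307). The Ptprc call was lost without CCR2+ replicate 3 (adjusted p = 0.0505) and under median scaling (0.1061). The Ly6c1 call was lost on leaving out any 1 of 5 arrays (up to 0.0835) and under median scaling (0.07965). Both were lost in the fit to the 8 arrays alone (adjusted p = 0.09846 for Ptprc and 0.1694 for Ly6c1). With the slide as a block there, both also missed the threshold (0.05814 and 0.112).

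**Figure D1:**
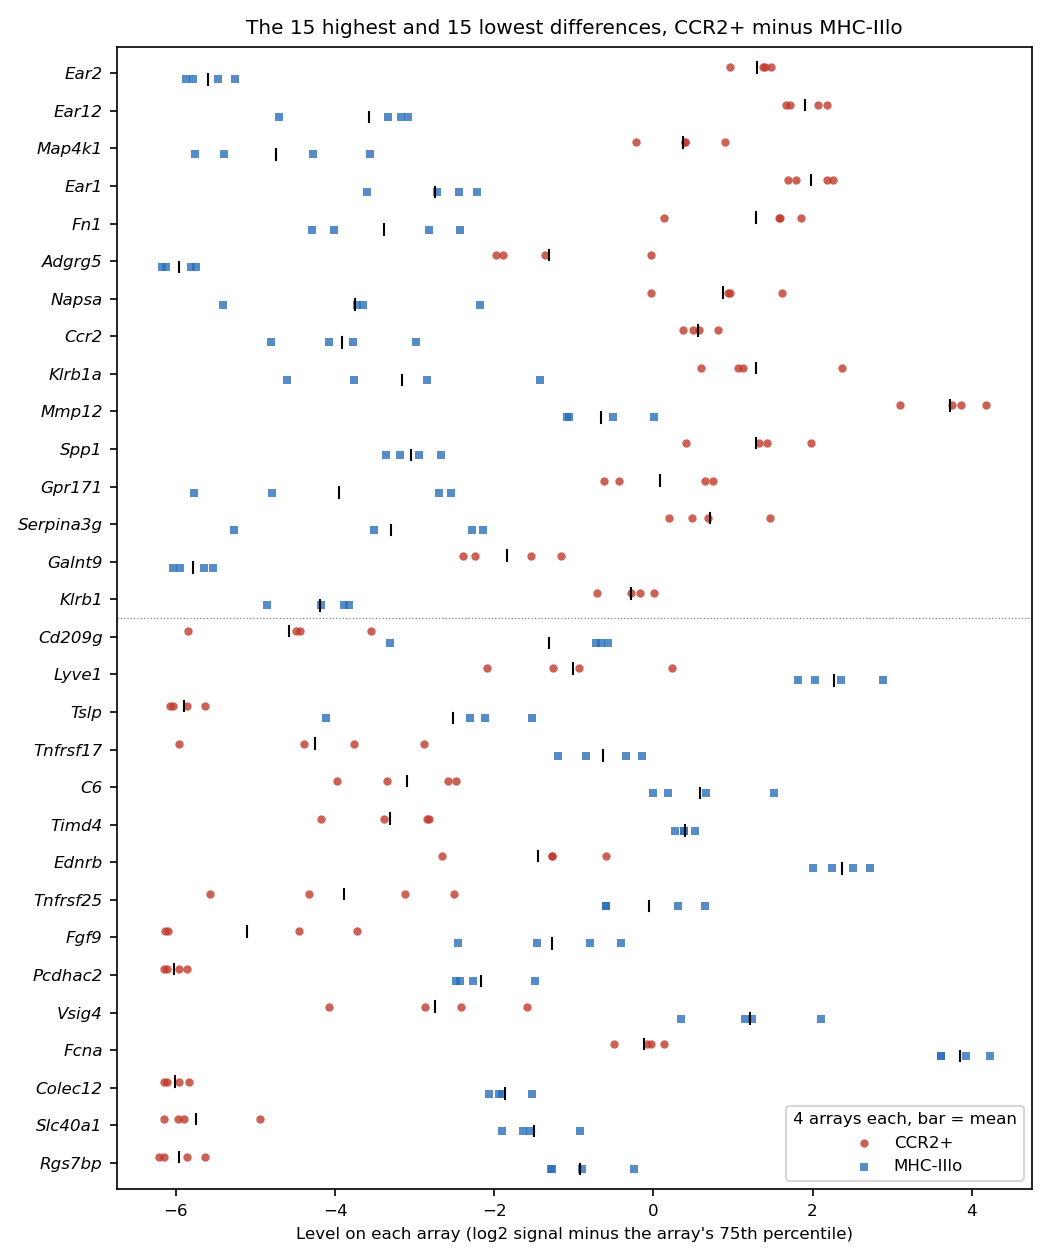
Level of each of 30 genes on each array (horizontal axis, log2 signal minus the array's 75th percentile), with CCR2+ arrays as circles above MHC-IIlo arrays as squares and the mean as a bar. The upper 15 genes had the highest and the lower 15 the lowest differences among genes called. Circles and squares do not overlap in any row, and the Cd209g square at -3.31 lies nearest to the circles of its gene.

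MHC class II genes were higher in CCR2+ macrophages, a direction that the gates on the surface molecule already set. The sequences show the 150 bases before the RefSeq start (GRCm38.p6) of those class II genes that were called and that hold the letters GATTGG, the core of the Y box bound by the factor NF-Y, in capitals on either strand; each runs 5′ to 3′ on the gene's strand.
H2-Aa (chr17:34287824-34287973, minus strand): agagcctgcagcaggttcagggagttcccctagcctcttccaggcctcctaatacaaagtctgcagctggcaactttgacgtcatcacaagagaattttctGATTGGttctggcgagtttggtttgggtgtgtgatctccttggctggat
H2-Eb1 (chr17:34305717-34305866, plus strand): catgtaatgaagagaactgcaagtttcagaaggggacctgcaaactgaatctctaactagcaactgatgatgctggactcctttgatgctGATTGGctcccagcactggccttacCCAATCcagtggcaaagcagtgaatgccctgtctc
H2-DMb1 (chr17:34153041-34153190, plus strand): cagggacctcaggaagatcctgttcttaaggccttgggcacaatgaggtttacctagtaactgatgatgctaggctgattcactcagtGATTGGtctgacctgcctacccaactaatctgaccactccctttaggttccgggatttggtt
H2-DMb2 (chr17:34145099-34145248, plus strand): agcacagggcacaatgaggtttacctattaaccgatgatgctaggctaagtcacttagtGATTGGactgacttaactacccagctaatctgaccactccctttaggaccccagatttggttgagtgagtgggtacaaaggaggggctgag
H2-Ob (chr17:34238755-34238904, plus strand): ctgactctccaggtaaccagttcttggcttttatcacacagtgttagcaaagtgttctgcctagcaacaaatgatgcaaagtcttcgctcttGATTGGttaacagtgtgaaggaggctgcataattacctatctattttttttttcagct
The first G of the match lies at -49 in H2-Aa, -60 in H2-Eb1, -62 in H2-DMb1, -91 in H2-DMb2 and -58 in H2-Ob, counted from the start, and H2-Eb1 holds a match on the other strand too. Among all 32851 promoters of the table, 10.9% hold GATTGG on either strand in the same window. Of 17 class II and presentation genes tested, 12 had a promoter that was read here, and 7 of the 12 held the letters. These were 5 of 6 that were called and 2 of 6 that were not (H2-Oa and H2-Eb2). The others read and not called, Ctss, Ifi30, Lgmn and Cd80, are not class II chains, so the counts do not compare like genes. Promoters of the called genes H2-Ab1, Ciita and Cd74 were not read, that of Cd74 because its chromosome was left out. A match is a description of these letters and not a measured site.

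Of those 17 genes, 9 were higher in CCR2+ macrophages, 0 were lower and 8 did not pass, and the list's median difference was 0.84. All 9 were called with the slide as a block too. Leaving out single arrays gave 6 to 8, the lowest without MHC-IIlo replicate 3, and the fit to the 8 arrays alone gave 6. H2-Ab1, the beta chain of the classical molecule I-A, stood at 5.86, 5.76, 5.71 and 5.75 on the CCR2+ arrays, against 4.23, 3.59, 3.26 and 4.70 on the MHC-IIlo arrays, a 3.55-fold difference (1.83 ± 0.25, adjusted p = 0.00061). Its partner H2-Aa (1.45 ± 0.26) and the I-E beta chain H2-Eb1 (1.54 ± 0.23) were 2.74-fold and 2.91-fold higher, and H2-Aa missed the threshold in the fit to the 8 arrays alone (adjusted p = 0.0604). In CCR2+ macrophages the 3 chains varied little between arrays, with SDs of 0.06 to 0.12, while SDs in MHC-IIlo macrophages were 0.48 to 0.64, and replicate 4 was the highest MHC-IIlo array for each.

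The chaperones that load peptides followed. H2-DMb1, the beta chain of the peptide exchange factor H2-M, stood at 5.10, 4.77, 5.29 and 4.81 in CCR2+ macrophages, against 3.47, 2.86, 3.24 and 3.58 in MHC-IIlo macrophages (1.71 ± 0.21, adjusted p = 0.000216). Its second beta chain H2-DMb2 differed by the most within the list, 7.29-fold (2.87 ± 0.40, adjusted p = 0.000566), with slide differences from 2.62 to 3.16, and the alpha chain H2-DMa was 2.80-fold higher (1.49 ± 0.21, adjusted p = 0.000646). H2-Ob, part of the inhibitor of H2-M, was higher by 1.30 ± 0.28 (adjusted p = 0.016), but its call was lost on leaving out CCR2+ replicate 1, MHC-IIlo replicate 2 or MHC-IIlo replicate 3 (adjusted p up to 0.0586). Its partner H2-Oa averaged -0.82 ± 0.55 in CCR2+ and -2.32 ± 1.05 in MHC-IIlo macrophages and did not pass (adjusted p = 0.216).

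The invariant chain Cd74, which holds new class II molecules until loading, was 1.79-fold higher in CCR2+ macrophages (0.84 ± 0.17, adjusted p = 0.0139). Its call was lost without MHC-IIlo replicate 3 (adjusted p = 0.0561), under median scaling (0.0863) and in a fit to the 8 arrays alone (0.0937). Ciita, the coactivator of the whole set, stood at 4.32, 4.55, 4.69 and 4.53 in CCR2+ macrophages, against 3.17, 3.92, 3.79 and 3.97 in MHC-IIlo macrophages. Its 1.75-fold difference (0.81 ± 0.20, adjusted p = 0.0462) was lost on leaving out any 1 of the 8 arrays (adjusted p up to 0.142), in the fit to the 8 arrays alone (0.162) and without the filter on dim probes (0.0607). Downstream of class II assembly, the proteases Ctss (0.14) and Lgmn (-0.31) and the costimulatory ligands Cd86 (-0.56), Cd80 (-0.24) and Cd40 (0.27) differed by less than 0.6 in either direction and did not pass.

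**Figure D2:**
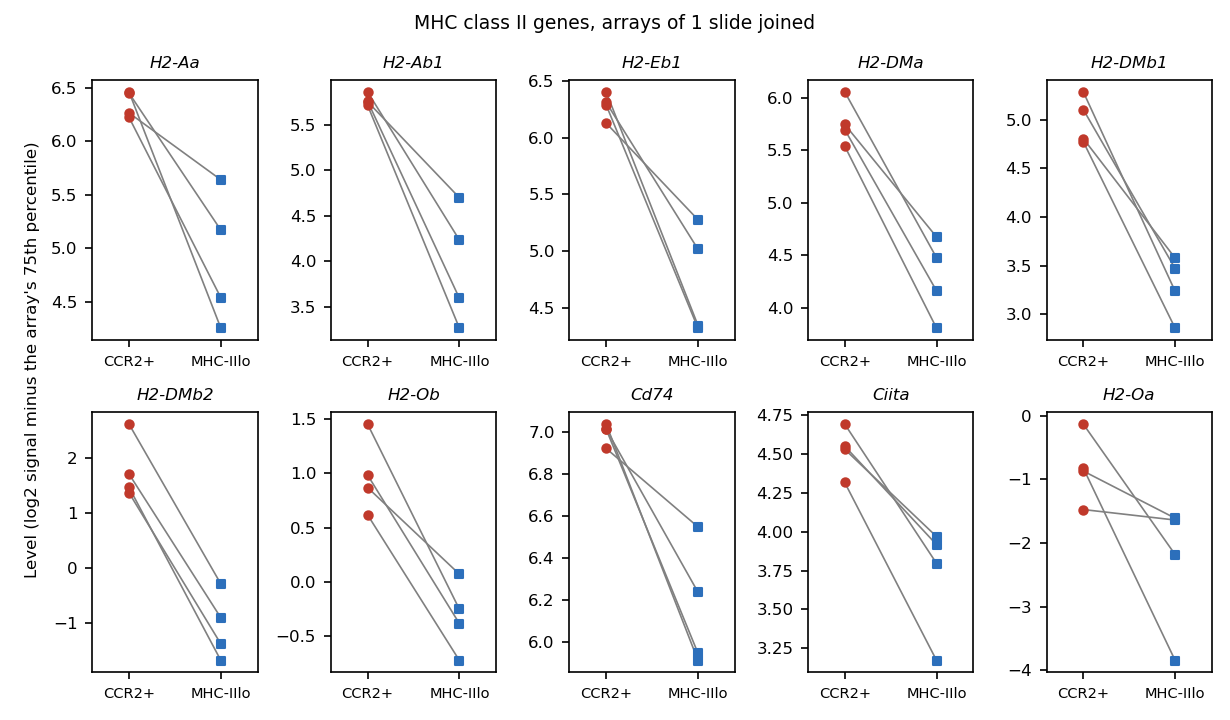
Level of 10 class II genes on each CCR2+ array (circles, left) and each MHC-IIlo array (squares, right), with the arrays of a slide joined; the vertical axis is log2 signal minus the array's 75th percentile, on its own scale per panel. All 40 lines fall towards MHC-IIlo, and the shallowest H2-Oa line spans 0.17.

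Among the 15 genes with the highest differences, secreted ribonucleases, matrix proteins and killer cell lectin-like receptors recurred. Ear2, an eosinophil-associated ribonuclease, stood at 1.48, 1.38, 1.40 and 0.96 on the CCR2+ arrays and was not well above background on any MHC-IIlo array, where the probe read -5.47, -5.87, -5.26 and -5.78. Its level in CCR2+ cells was therefore at least 32.1-fold higher (adjusted p = 3.11e-10). Ear12 differed by 5.48 ± 0.39 and Ear1 by 4.73 ± 0.31 (adjusted p = 1.53e-06 and 8.34e-07). The Ear2 probe shares no run longer than 5 bases with the probes of Ear1, Ear12, Ear10 or Rnase2a. The Ear12 probe shares 19 bases with that of Ear1 and 23 with that of Ear10. Probes were compared with each other and not with the transcripts of related genes, so the family members cannot be fully told apart. Ear2 was 3.57 ± 0.38 in Ly6cHi monocytes, and markers of eosinophils and mast cells were not higher in either group (7 tested, 0 called and 0 at an unadjusted p under 0.05; Ccr3, Cpa3, Cma1 and Fcer1a were not well above background on any of the 8 arrays).

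Of 33 matrix genes tested 6 were higher in CCR2+ macrophages, 1 was lower and 26 did not pass, with a list median of 0.15. Fitted with the slide as a block, 7 were higher and 4 lower. Fn1, which encodes fibronectin, stood at 1.57, 1.59, 1.86 and 0.13 in CCR2+ macrophages, against -2.82, -4.02, -4.29 and -2.44 in MHC-IIlo macrophages, of which 2 of 4 arrays were well above background. Spp1, the secreted matrix protein osteopontin, stood at 1.43, 1.33, 1.99 and 0.41 against -2.67, -2.95, -3.36 and -3.18 in the same order, a 20.1-fold difference (4.33 ± 0.52, adjusted p = 0.000162). For both genes CCR2+ replicate 4 was the lowest CCR2+ array, and for neither did the groups overlap. The elastase Mmp12 stood at 4.17, 3.76, 3.86 and 3.10 in CCR2+ macrophages, against -0.51, 0.01, -1.08 and -1.06 in MHC-IIlo macrophages. Mmp14, a collagenase anchored in the membrane, was 6.86-fold higher (2.78 ± 0.47, adjusted p = 0.00312). The gelatinase Mmp9 went the other way, since it was not well above background on any CCR2+ array and was at least 3.66-fold lower there (adjusted p = 0.000566, or 0.0584 under normexp background correction). The aspartic protease Napsa (4.62 ± 0.53) and the membrane protease Adam8 (2.57 ± 0.56, adjusted p = 0.0184) made up the 6, and the call of Adam8 was lost on leaving out any 1 of 6 arrays (adjusted p up to 0.0695) and in the fit to the 8 arrays alone (0.0511).

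Signalling genes of blood cells were next. Map4k1, a kinase of the germinal centre family also called HPK1, stood at 0.91, 0.40, 0.40 and -0.22 in CCR2+ macrophages, against -4.27, -5.39, -5.76 and -3.56 in MHC-IIlo macrophages, where 1 of 4 arrays was well above background. Of 34 haematopoietic kinases and adaptors 6 were higher and 0 lower, with a median difference of 0.36. Besides Map4k1 they included Rasgrp1, an exchange factor for Ras (14.1-fold, 3.81 ± 0.49), the phosphatase Ptpn22 (3.94-fold, 1.98 ± 0.24), the adaptor Sla and the Src family kinase Fgr. Ptpn22 stood at -0.63, -0.76, -0.47 and -0.59 in CCR2+ macrophages, against -2.32, -2.47, -3.38 and -2.19 in MHC-IIlo macrophages, so that the groups lay well apart. Sla (1.02 ± 0.22) lost its call without CCR2+ replicate 3 or MHC-IIlo replicate 4 (adjusted p up to 0.0554) and Fgr (1.34 ± 0.32) without any 1 of 5 arrays (up to 0.11). Both also missed the threshold under median scaling (0.0568 and 0.0695) and in the fit to the 8 arrays alone (0.133 and 0.103). With the slide as a block 9 of the 34 were higher, and 4 were called without CCR2+ replicate 3, without MHC-IIlo replicate 4 or under median scaling.

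Among the 15 highest differences were Klrb1a and Klrb1, receptors known from natural killer cells. Klrb1a, a C-type lectin-like receptor, stood at 2.37, 1.12, 1.06 and 0.59 in CCR2+ macrophages, against -1.42, -2.84, -4.60 and -3.77 in MHC-IIlo macrophages (4.44 ± 0.61, adjusted p = 0.000523). Klrb1 was at least 10.5-fold higher (adjusted p = 1.53e-06), as it was not well above background on any MHC-IIlo array. The lymphocyte list had 11 genes tested and 0 called by limma (2 at an unadjusted p under 0.05), its signal summed over 15 genes on the array ran from 13.3 to 19.3 in CCR2+ and from 15.2 to 21.3 in MHC-IIlo macrophages (in units of the 75th percentile), and Klrb1c, Gzmb and Ms4a1 were not well above background on any of the 8 arrays. With the slide as a block 1 of the 11 was higher and 1 lower (Cd4 and Cd79b, in no set order). Of 31 inhibitory and paired receptors 4 were higher in CCR2+ macrophages and 0 lower, a count that stayed at 4 whichever single array was left out, while 27 did not pass and the median was 0.21. These were Sirpb1a (5.21-fold, 2.38 ± 0.27, adjusted p = 0.00012), Cd300lf (4.93-fold, 2.30 ± 0.31), Cd300lb (3.17-fold, 1.66 ± 0.26) and Treml4 (5.57-fold, 2.48 ± 0.36), all surface receptors of myeloid cells. Treml4 missed the threshold in the fit to the 8 arrays with the slide as a block (adjusted p = 0.0522). Sirpb1a stood at 2.19, 2.08, 2.37 and 1.97 on the CCR2+ arrays, against -1.21, 0.36, -0.10 and 0.03 on the MHC-IIlo arrays.

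The other genes among the 15 highest were Adgrg5, an adhesion G protein-coupled receptor (at least 5.22-fold higher), the serpin Serpina3g (4.01 ± 0.64), Galnt9, a glycosyltransferase that starts O-linked sugar chains (at least 3.63-fold), and the orphan receptor Gpr171 (4.04 ± 0.91, adjusted p = 0.0231). The MHC-IIlo arrays of Gpr171 ran from -5.78 to -2.54, and its call was lost on leaving out any 1 of 4 arrays (adjusted p up to 0.0901) and in the fit to the 8 arrays with the slide as a block (0.079).

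Interleukin-1 pathway genes had 5 of 15 higher in CCR2+ macrophages and 0 lower, or 5 and 1 with the slide as a block. The median was 0.24, and between 2 and 4 were called when single arrays were left out. Removing CCR2+ replicate 1, CCR2+ replicate 3 or MHC-IIlo replicate 2 gave the lowest number, 2, as did the fit to the 8 arrays alone. Il1b, the cytokine itself, stood at 3.34, 3.35, 3.55 and 2.71 on the CCR2+ arrays, against 1.23, 1.50, 1.55 and 1.32 on the MHC-IIlo arrays, a 3.56-fold difference (1.83 ± 0.21, adjusted p = 0.000121). Mefv, which encodes the inflammasome sensor pyrin, was 6.61-fold higher (2.72 ± 0.28, adjusted p = 4.96e-05). Both calls held with every array left out, while the sensors Nlrp3 (0.87 ± 0.18) and Nlrp1b (1.11 ± 0.28) and the receptor antagonist Il1rn (1.25 ± 0.29) lost theirs on leaving out any 1 of 4, 6 and 6 arrays (adjusted p up to 0.0588, 0.116 and 0.0874). The caspase Casp1 (-0.05), the adaptor Pycard (0.24) and the cytokine Il18 (0.16) did not pass. Toll-like receptors and their adaptors had 20 genes tested and 0 called by limma (6 at an unadjusted p under 0.05), 2 higher and 2 lower with the slide as a block.

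Of 17 genes typical of Ly6cHi monocytes 5 were higher in CCR2+ macrophages and 0 lower, with a median of 0.20. Besides Fn1 these were Clec4e, a receptor for mycobacterial glycolipid (at least 3.36-fold, adjusted p = 3.25e-05), Plac8 (3.16 ± 0.56), the chitinase-like Chil3 (3.32 ± 0.66) and haptoglobin, Hp (2.15 ± 0.45). Plac8 stood at 0.49, 1.17, 2.73 and -0.90 in CCR2+ macrophages, against -2.15, -2.02, -3.27 and -1.70 in MHC-IIlo macrophages, and its slide differences ran from 0.80 to 6.00. Chil3 slide differences ran from 0.23 to 5.95, and for Plac8, Chil3 and Hp the CCR2+ arrays had the same order, replicate 3 highest and replicate 4 lowest. These 3 calls were lost in the fit to the 8 arrays alone (adjusted p = 0.072, 0.0962 and 0.105), and that of Hp also without CCR2+ replicate 2 (0.0521). The monocyte genes Vcan (1.01), S100a4 (0.20) and Lyz2 (-0.43) did not pass. The list was drawn from general and published knowledge of monocytes and is not independent evidence of its direction.

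Genes on the dendritic cell list moved in the same direction, 6 of 14 higher and 0 lower, with a median of 0.89. They were Cd24a (at least 3.3-fold higher, adjusted p = 0.000111), the chemokine Ccl17 (2.03 ± 0.38), Jaml (2.97 ± 0.65), Cd209a (2.53 ± 0.62), Dpp4 (1.33 ± 0.30) and the transcription factor Batf3 (1.03 ± 0.24). The list gave 2 calls without CCR2+ replicate 3 and 2 in the fit to the 8 arrays alone. Jaml, Cd209a, Dpp4 and Batf3 lost their calls on leaving out any 1 of 2, 5, 5 and 6 arrays (adjusted p up to 0.0731, 0.127, 0.0803 and 0.0972), and Ccl17 in the fit to the 8 arrays alone (0.0613). The 8 others tested did not pass and ran from -0.59 for Kmo to 1.55 for Ccr7, with Zbtb46 at -0.30 and Flt3 at 0.74. Of all 18 markers on the array, 13 were well above background on 4 of 4 CCR2+ arrays, against 6 on 4 of 4 MHC-IIlo arrays. Xcr1 and Ccl22 were so on none of the 8 arrays, and Clec9a, Ly75 and Cd24a on some CCR2+ array and no MHC-IIlo array. The summed signal of the 18 ran from 41.7 to 50.7 in CCR2+ and from 43.1 to 50.8 in MHC-IIlo macrophages, and their part in the class II and CD11c differences was not tested.

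Among transcription factors 4 of 37 were higher and 3 lower in CCR2+ macrophages, against 8 and 6 with the slide as a block. Bhlhe40, a basic helix-loop-helix repressor, stood at 1.18, 0.40, 0.64 and -0.50 in CCR2+ macrophages, against -1.37, -2.24, -2.03 and -2.58 in MHC-IIlo macrophages (5.59-fold, 2.48 ± 0.38, adjusted p = 0.00131). The leucine zipper repressor Nfil3 (5.08-fold, 2.35 ± 0.31) and Runx3, a runt domain factor of lymphoid and myeloid cells (2.54-fold, 1.34 ± 0.22), were also higher and kept their calls with every array left out, and Batf3 was the fourth. The 3 lower ones, Maf (-0.99 ± 0.24), Spic (-0.89 ± 0.21) and Tfec (-2.06 ± 0.48), are macrophage factors whose calls were lost on leaving out any 1 of 7, 6 and 6 arrays (adjusted p up to 0.128, 0.116 and 0.0991) and under median scaling (0.226, 0.094 and 0.0695).

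Lipid handling genes went both ways, with 4 of 30 higher and 2 lower, or 7 and 3 with the slide as a block. Fabp5, a fatty acid binding protein, stood at 0.29, 1.49, 0.81 and -0.61 in CCR2+ macrophages, against -1.82, -2.21, -2.43 and -2.47 in MHC-IIlo macrophages (6.63-fold, 2.73 ± 0.37, adjusted p = 0.000482). Apoc2, the cofactor of lipoprotein lipase, was 2.85-fold higher with slide differences from 1.50 to 1.52 (1.51 ± 0.22), and the cholesterol exporter Abcg1 was 3.03-fold higher (1.60 ± 0.25, adjusted p = 0.00195, or 0.0511 in the fit to the 8 arrays with the slide as a block). The exporter Abca1 differed by -1.05, Apoe by -0.51 and the lipase Lpl by 0.36 and none passed, although Apoe did with the slide as a block (adjusted p = 0.161, or 0.0207 with it). The apolipoprotein Apoc1 (-1.74 ± 0.41) and the squalene synthase Fdft1 (-0.88 ± 0.20) were called but lost their calls on leaving out any 1 of 6 and 5 arrays (adjusted p up to 0.118 and 0.0949) and under median scaling (0.0695 and 0.23). That of Fdft1 was also lost when all kept probes of the gene were averaged (adjusted p = 0.8245).

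In the other direction, genes of resident macrophages were lower in CCR2+ macrophages: 17 of 20 fell, 0 rose and 3 did not pass, with a median difference of -2.40 and slide medians from -2.63 to -1.81. Published work on macrophages of the heart, which may include these samples, went into the list, so it is not independent evidence of its direction. Between 14 and 17 were called with single arrays left out. Timd4, which binds phosphatidylserine on dying cells, stood at -2.82, -4.18, -3.38 and -2.85 in CCR2+ macrophages, against 0.39, 0.39, 0.52 and 0.27 in MHC-IIlo macrophages, the tightest MHC-IIlo values of the list. The hyaluronan receptor Lyve1 stood at -2.09, -0.93, 0.23 and -1.26 against 2.03, 2.35, 2.88 and 1.82 in the same order, 9.73-fold lower (-3.28 ± 0.42, adjusted p = 0.00028). The folate receptor Folr2 (-2.57 ± 0.33) and the haemoglobin scavenger Cd163 (-2.56 ± 0.22) were 5.92-fold and 5.91-fold lower, with slide differences of -2.83 to -2.25 and -2.69 to -2.43. The scavenger receptor Stab1 (-1.63 ± 0.25), the bridging ligand Gas6 (-1.60 ± 0.21), the carbonyl reductase Cbr2 (-1.62 ± 0.23) and coagulation factor F13a1 (-1.94 ± 0.20) fell by similar amounts, 3.03-fold to 3.84-fold. The eosinophil chemoattractant Ccl24 was 7.74-fold lower (-2.95 ± 0.29, adjusted p = 2.72e-05).

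Igf1, a growth factor for heart muscle, stood at 1.41, 0.46, 0.61 and 0.67 in CCR2+ macrophages, against 2.76, 1.72, 2.11 and 1.89 in MHC-IIlo macrophages (-1.33 ± 0.28, adjusted p = 0.0157). Its slide differences were all between -1.50 and -1.22, yet the call was lost without CCR2+ replicate 2 or 3 (adjusted p up to 0.058), under median scaling (0.0992), under normexp (0.0587) and in the fit to the 8 arrays alone (0.0773). The mannose receptor Mrc1 differed by -1.13 and did not pass without the slide as a block (adjusted p = 0.0678, or 0.00703 with it). Mgl2 (-0.15) and Marco (-0.76) did not pass. Fcrls, a receptor-like protein of resident macrophages, was lower by a smaller amount (-0.98 ± 0.19, adjusted p = 0.00779), and missed the threshold under median scaling (0.07) and in the fit to the 8 arrays alone (0.0739). The lectins of the DC-SIGN family, Cd209f (-2.24 ± 0.54) and Cd209g (-3.27 ± 0.71), were lower but lost their calls on leaving out any 1 of 6 and 5 arrays (adjusted p up to 0.119 and 0.0753), in the fit to the 8 arrays alone (0.0604 for both) and with array weights (0.0537 and 0.0861). Cd209g stood at -5.85, -4.50, -4.45 and -3.55 in CCR2+ macrophages, against -0.66, -0.73, -0.58 and -3.31 in MHC-IIlo macrophages, so that replicate 4 of MHC-IIlo lay next to the CCR2+ arrays.

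**Figure D3:**
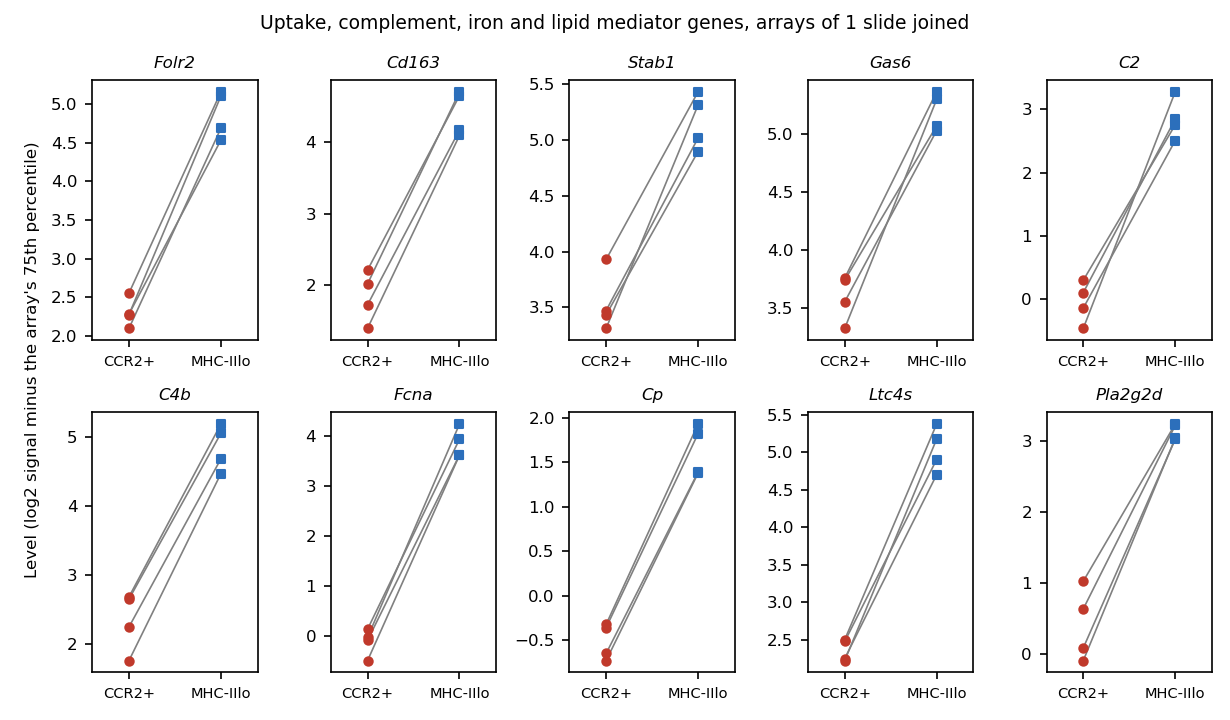
Level of 10 genes for uptake, complement, iron and lipid mediators on each CCR2+ array (circles, left) and MHC-IIlo array (squares, right), with the arrays of a slide joined; the vertical axis is log2 signal minus the array's 75th percentile. All 40 lines rise towards MHC-IIlo, and the 4 Cp differences lie between -2.25 and -2.04.

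Complement genes were lower in 6 of 25 cases and higher in 1, and both counts were unchanged with each of the 8 arrays left out. The classical pathway protease C2 stood at -0.46, 0.10, 0.30 and -0.14 in CCR2+ macrophages, against 3.28, 2.85, 2.75 and 2.51 in MHC-IIlo macrophages, 7.44-fold lower (-2.90 ± 0.27, adjusted p = 1.82e-05). Component C4b was 5.72-fold lower (-2.52 ± 0.33) and the late component C6 12.8-fold (-3.68 ± 0.50). The lectin ficolin A, Fcna, stood at -0.03, -0.09, 0.13 and -0.49 against 4.24, 3.62, 3.93 and 3.62 in the same order, and Vsig4, a receptor for C3 fragments, at -4.08, -2.88, -1.59 and -2.42 against 1.15, 1.24, 2.10 and 0.34. The 1 higher gene was Itgax, a subunit of complement receptor 4 and a gate marker. The subunits of C1q did not pass, C1qa at -0.63, C1qb at -0.40 and C1qc at -0.52, of which C1qc passed with the slide as a block (adjusted p = 0.236, or 0.0258 with it). The list median was -0.40.

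Iron and haem genes had 5 of 18 lower and 0 higher, or 8 lower with the slide as a block, and a median of -0.52. The iron exporter ferroportin, Slc40a1, was not well above background on any CCR2+ array and stood at -0.92, -1.91, -1.55 and -1.64 on the MHC-IIlo arrays, at least 5.25-fold lower in CCR2+ macrophages (adjusted p = 8.34e-07). Ceruloplasmin, Cp, the ferroxidase that works beside it, stood at -0.32, -0.73, -0.65 and -0.36 in CCR2+ macrophages, against 1.93, 1.38, 1.39 and 1.82 in MHC-IIlo macrophages, 4.42-fold lower (-2.14 ± 0.20, adjusted p = 2.13e-05). Biliverdin reductase B, Blvrb, was 2.97-fold lower (-1.57 ± 0.27, adjusted p = 0.004), and Cd163 and Spic complete the 5. Haem oxygenase Hmox1 (-0.60), transferrin Trf (-0.58) and the transferrin receptor Tfrc (-1.45) were added by the block alone (adjusted p = 0.287, 0.275 and 0.149 without it, and 0.0229, 0.0193 and 0.0165 with it). The ferritin chain Fth1 differed by -0.19 and did not pass.

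Eicosanoid and phospholipase genes had 4 of 25 lower and 1 higher, or 6 and 3 with the slide as a block. The list median was -0.42. Leukotriene C4 synthase, Ltc4s, stood at 2.50, 2.25, 2.22 and 2.48 in CCR2+ macrophages, against 5.38, 4.70, 5.18 and 4.91 in MHC-IIlo macrophages, 6.41-fold lower (-2.68 ± 0.23, adjusted p = 9.04e-06). The secreted phospholipase Pla2g2d stood at 0.08, 1.02, 0.63 and -0.09 against 3.03, 3.24, 3.22 and 3.04 in the same order (-2.72 ± 0.43, adjusted p = 0.00194). The prostaglandin dehydrogenase Hpgd was 2.17-fold lower, a call that was lost when all kept probes of the gene were averaged (adjusted p = 0.00576, or 0.31 with the average) and under median scaling (0.054). The epoxide hydrolase Ephx1 (-1.21 ± 0.28) lost its call on leaving out any 1 of 6 arrays (adjusted p up to 0.0944). The prostacyclin receptor Ptgir was at least 1.67-fold higher in CCR2+ cells, since it was not well above background on any MHC-IIlo array (adjusted p = 0.000224). Upstream of Ltc4s, the lipoxygenase Alox5 (-0.97) and its activator Alox5ap (-0.60) did not pass.

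Chemokines were called in both directions, 4 of 21 higher and 3 lower, or 5 and 5 with the slide as a block. Ccl17 was among the higher and Ccl24 and Pf4 among the lower ones. In addition Ccl5 (1.09 ± 0.24), the CXCR3 ligand Cxcl9 (1.45 ± 0.36) and Cxcl16 (2.14-fold, adjusted p = 0.0382) were higher and the monocyte chemoattractant Ccl8 lower (-2.67 ± 0.62), with calls lost on leaving out any 1 of 4, 7, 7 and 7 arrays (adjusted p up to 0.0775, 0.116, 0.14 and 0.09). The higher count was 1 without CCR2+ replicate 2, MHC-IIlo replicate 3 or MHC-IIlo replicate 4, and 0 in the fit to the 8 arrays alone. Of 24 chemoattractant receptors 2 were higher, Ccr2 and the chemerin-binding receptor Ccrl2 (1.65 ± 0.32, adjusted p = 0.00789, or 0.0671 in the fit to the 8 arrays alone), and 3 were lower. The sphingosine phosphate receptor S1pr1 stood at -0.99, -1.26, -0.42 and -1.62 in CCR2+ macrophages, against 1.25, 0.72, 1.56 and 0.74 in MHC-IIlo macrophages, 4.41-fold lower with slide differences from -2.35 to -1.98. The ADP receptor P2ry13 was 4.15-fold lower (-2.05 ± 0.28, adjusted p = 0.000499). Its neighbour P2ry12 (-1.42 ± 0.30) lost its call without CCR2+ replicate 2 or 4 or MHC-IIlo replicate 4 (adjusted p up to 0.0639) and under quantile normalization (0.0866). Of 25 growth and angiogenic factors 5 were lower and 0 higher, among them Bmp2 (4.39-fold, -2.13 ± 0.37), Pdgfc (4.59-fold, -2.20 ± 0.42), the ribonuclease angiogenin, Ang (2.48-fold, -1.31 ± 0.26), and Igf1. The fifth, the semaphorin and VEGF coreceptor Nrp2 (-1.16 ± 0.27), lost its call on leaving out any 1 of 6 arrays (adjusted p up to 0.1), and 3 of the 5 were called without CCR2+ replicate 2, without CCR2+ replicate 3 or under median scaling. Vegfa (1.20) and Tgfb1 (0.18) did not pass.

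The rest of the 15 lowest differences were mostly genes not well above background on any CCR2+ array. Rgs7bp, which anchors regulators of G protein signalling at the membrane, stood at -0.24, -0.90, -1.27 and -1.28 in MHC-IIlo macrophages and was at least 7.83-fold lower in CCR2+ macrophages (adjusted p = 8.34e-07). The scavenger collectin Colec12 was at least 4.09-fold lower, the growth factor Fgf9 at least 6.07-fold, the protocadherin Pcdhac2 at least 3.31-fold and the epithelial cytokine Tslp at least 2.6-fold. Ednrb, a receptor for endothelin, stood at -2.65, -1.27, -0.59 and -1.27 in CCR2+ macrophages, against 2.72, 2.00, 2.24 and 2.51 in MHC-IIlo macrophages. The TNF receptor family members Tnfrsf17, known as the B cell receptor BCMA (-3.62 ± 0.56, adjusted p = 0.00151), and Tnfrsf25 (-3.82 ± 0.79, adjusted p = 0.0139) were well above background on 2 of 4 CCR2+ arrays each, and Tnfrsf25 lost its call without MHC-IIlo replicate 3 (adjusted p = 0.0518).

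**Figure D4:**
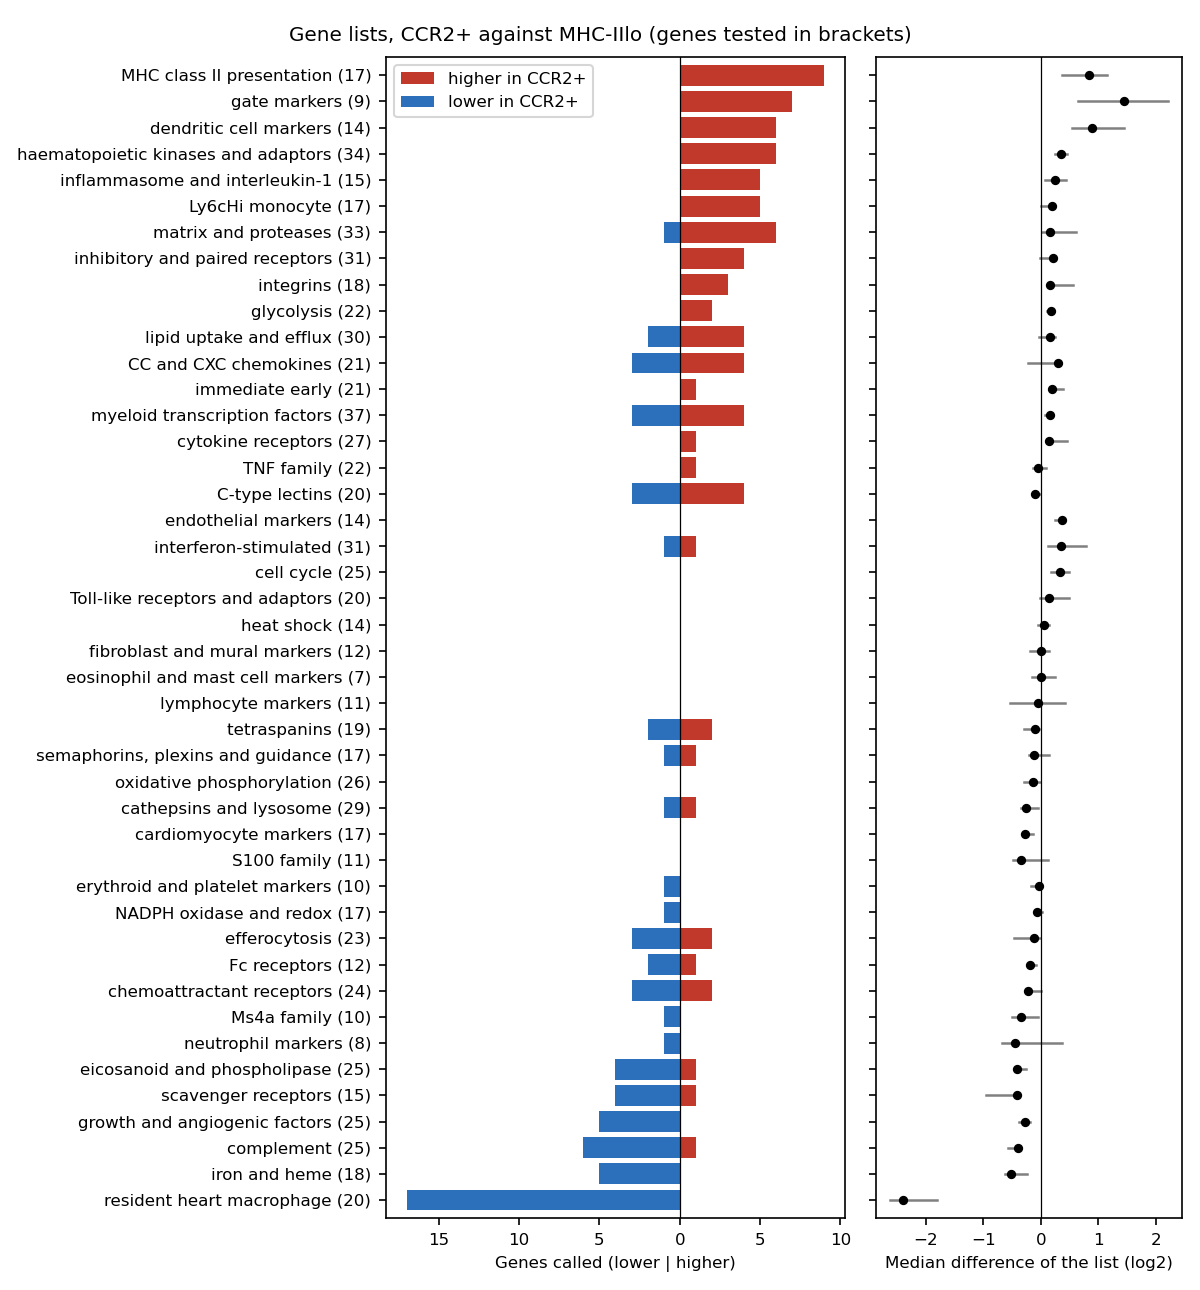
Number of genes called per list, higher in CCR2+ to the right and lower to the left (left panel), and the list's median difference in log2 as a point with the range of its 4 slide medians as a line (right panel); the number tested stands in brackets. The resident heart macrophage list reaches 17 lower and the MHC class II list 9 higher, and 10 lists have no gene called.

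Several gene groups held no call. By limma, none of 26 oxidative phosphorylation subunits, 25 cell cycle genes, 14 heat shock genes or 11 S100 genes passed, with medians of -0.13, 0.32, 0.05 and -0.35 and with 3, 4, 0 and 3 genes at an unadjusted p under 0.05 in that order. With the slide as a block 2 of the oxidative phosphorylation subunits were lower and 1 S100 gene was higher. Interferon-stimulated genes had 1 of 31 higher, Cxcl9, and 1 lower, the membrane protein Ifitm2 (-0.73 ± 0.17, adjusted p = 0.0315, lost on leaving out any 1 of 5 arrays, up to 0.112), against 7 and 2 with the block. Cathepsins and lysosomal genes had 1 of 29 higher, the membrane glycoprotein Gpnmb (1.91 ± 0.40), and 1 lower, the tetraspanin Cd63 (-1.05 ± 0.25), against 2 and 8 with the block. Their calls were lost on leaving out any 1 of 2 and 5 arrays (adjusted p up to 0.0584 and 0.104). The list counts here and above stand against 1.48% higher and 1.28% lower over all genes tested, or 2.81% and 2.89% with the block.

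Transcripts of other heart cells were measured beside these results. Cardiomyocyte markers had 17 tested and 0 called by limma (1 at an unadjusted p under 0.05), a median of -0.28, and a summed signal of 34.0 to 47.2 in CCR2+ and 40.2 to 53.6 in MHC-IIlo macrophages over 18 genes, with Ryr2 the 1 marker not well above background on any of the 8 arrays. Endothelial markers had 14 tested and 0 called by limma (4 at an unadjusted p under 0.05), a median of 0.37, and a summed signal of 12.2 to 18.5 in CCR2+ and 9.99 to 14.2 in MHC-IIlo macrophages, with Cdh5 not well above background on any of the 8 arrays. Fibroblast and mural markers had 12 tested and 0 called by limma (2 at an unadjusted p under 0.05), a median of 0.00, and a summed signal of 12.3 to 20.4 in CCR2+ and 15.2 to 18.8 in MHC-IIlo macrophages, with Pdgfra and Pdgfrb not well above background. Erythroid and platelet markers had a median of -0.03, and summed to 13.5 to 17.9 in CCR2+ and 42.5 to 54.7 in MHC-IIlo macrophages, or without Pf4 to 1.44 to 2.85 in CCR2+ and 1.69 to 2.87 in MHC-IIlo macrophages. The 1 called among 10 was Pf4, a chemokine also made by macrophages (-1.65 ± 0.33, adjusted p = 0.0125), whose levels were 4.04, 3.46, 3.92 and 3.84 against 5.49, 5.32, 5.73 and 5.32 in the same order. With the slide as a block the endothelial list and the fibroblast and mural list each had 1 gene higher and 1 lower. These were Aqp1 and Ly6a in the former, and Dcn and Cspg4 in the latter. With it the cardiomyocyte list had 0 called, and the erythroid and platelet list 0 higher and 1 lower. The part of any of these marker lists in the differences above was not tested.

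The MHC-IIHi gate stands beside this contrast. MHC-IIHi macrophages share the CCR2Neg gate with MHC-IIlo cells and the MHCIIHi gate with CCR2+ cells. Their mean lay between the means of the CCR2+ and MHC-IIlo groups for 528 of the 607 genes, 282 of 326 higher ones and 246 of 281 lower ones. It was nearer to MHC-IIlo for 225 of 326 higher and 236 of 281 lower genes. Over all genes tested it lay between for 39.8% and was nearer to MHC-IIlo for 58.5%. Genes called for a wide gap between 2 groups tend to have any other group inside it, so these counts describe the 607 genes and test nothing. The difference of MHC-IIHi from the midpoint of both other gates, a comparison that shares its samples with the contrast above, was called for 4 genes (0.0182% of those tested; 1067 at an unadjusted p under 0.05), all with the MHC-IIHi mean below the midpoint, and for 32 with the slide as a block. The 4 were Ear2, Fn1, Clec4e and Pimreg, of which Pimreg did not differ by a passing amount between CCR2+ and MHC-IIlo macrophages (-0.06 ± 0.35, adjusted p = 0.989). Ear2 averaged 1.31 ± 0.23 in CCR2+, -5.48 ± 0.38 in MHC-IIHi and -5.59 ± 0.28 in MHC-IIlo macrophages, and Fn1 averaged 1.29 ± 0.78, -5.06 ± 1.12 and -3.39 ± 0.90 in that order.

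For the classical class II chains MHC-IIHi macrophages lay beside CCR2+ macrophages. H2-Ab1 averaged 5.77 ± 0.06 in CCR2+, 5.75 ± 0.13 in MHC-IIHi and 3.94 ± 0.64 in MHC-IIlo macrophages, although the midpoint difference did not pass (adjusted p = 0.29). H2-DMb2 was spread over the gates, at 1.79 ± 0.57, -0.12 ± 0.77 and -1.07 ± 0.61 in the same order, and so were Timd4 at -3.31 ± 0.64, -0.40 ± 0.18 and 0.39 ± 0.10 and Lyve1 at -1.01 ± 0.96, 0.96 ± 0.63 and 2.27 ± 0.46. Ly6cHi monocytes were also not alike across the higher genes. Of the 326 genes called higher in CCR2+ macrophages, the monocyte mean was above the MHC-IIlo mean for 256 and above the CCR2+ mean for 160. These counts were not made over all genes tested and describe the 326 genes only. As single examples, Spp1, Mmp12 and Klrb1a were well above background on 0 of 4 monocyte arrays, while Ear2, Fn1 and Napsa averaged 3.57 ± 0.38, 4.49 ± 0.26 and 4.57 ± 0.24 there.

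**Figure D5:**
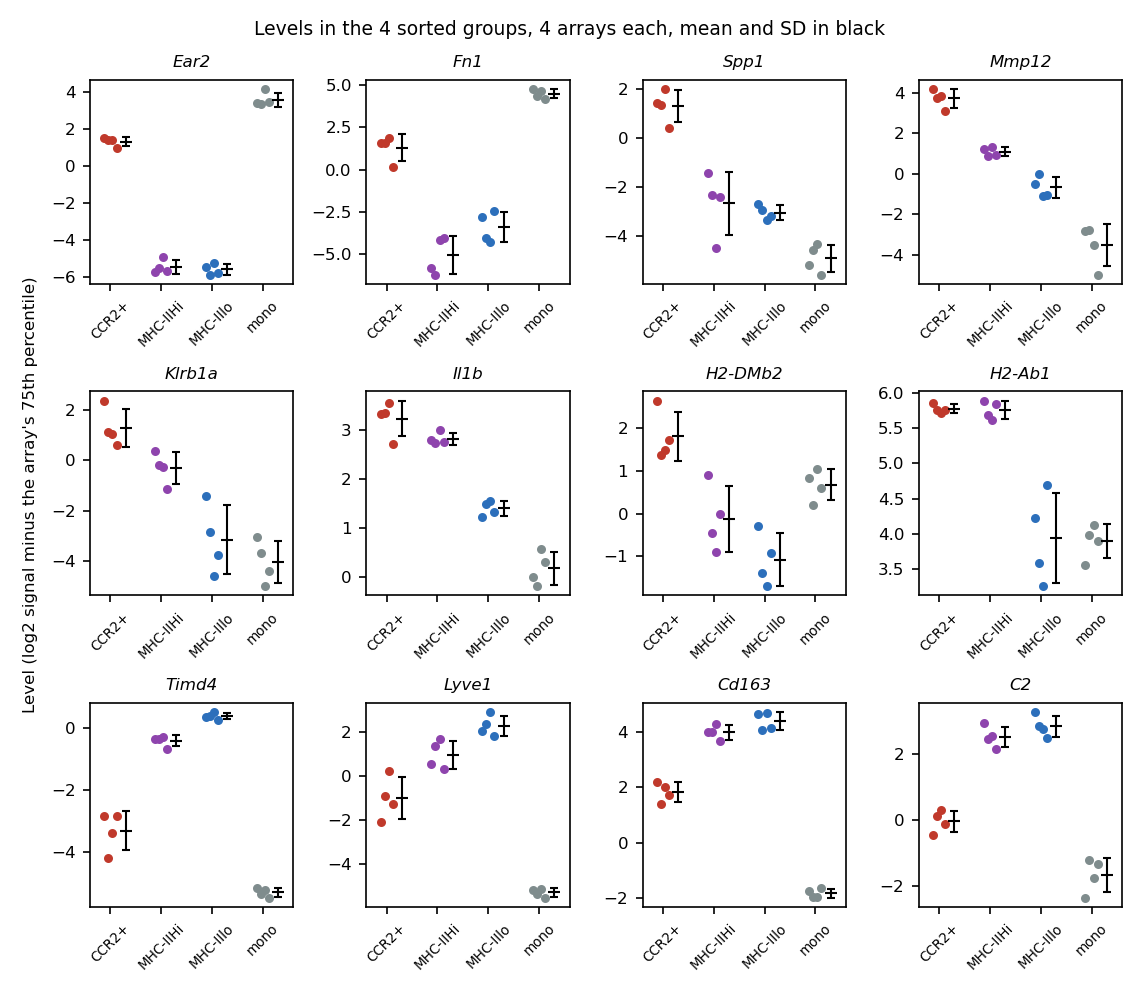
Levels of 12 genes on each array of the 4 sorted groups (log2 signal minus the array's 75th percentile), with mean and SD in black; mono stands for Ly6cHi monocytes. H2-Ab1 sits near 5.77 in CCR2+ and 5.75 in MHC-IIHi macrophages, while Ear2 is at 1.31 in CCR2+ macrophages and below -5 in both other heart gates.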

How the data were processed

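RNA of 16 sorted samples was labelled with Cy5 from 1 ng and hybridised to single-colour Agilent mouse arrays, per the labels' protocols. The deposited scanner files hold the processed signal intensity of each spot after the background subtraction of Agilent Feature Extraction 11.5.1.1, per the file headers. Partek is named in the submitters' processing notes. The deposited value table, on a log2 scale with unstated centring, was not used: 0 of its columns matched the array of their own label best, and 12 matched an array of another group.

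Control spots were left out and spots of a probe averaged. Levels are log2 processed signal minus the array's 75th percentile. Of 39429 probes, 27643 were well above background on at least 4 of 16 arrays, and the brightest per gene symbol left 22011 features. limma 3.58.1 (R 4.3.3) was fitted with 1 mean per group over 16 arrays, with Benjamini-Hochberg adjustment over all features. Named genes are the 15 highest and 15 lowest differences among called genes with a symbol and 1 sign on 4 of 4 slides, plus the members of 44 lists. Members and lists were chosen with earlier results of these data known. A gene dim in a whole group has only a bound, given as at least N-fold: the bright group's mean against, per dim array, the higher of the gene's own value and the lowest signal among probes well above background. Deviations from group means correlated between same-numbered CCR2+ and MHC-IIlo arrays at 0.254 to 0.639, and each number is a slide. Between differently numbered arrays of these groups they correlated at -0.535 to 0.492. CCR2+ replicate 4 with MHC-IIlo replicate 2 gave 0.492, and CCR2+ replicate 2 with MHC-IIlo replicate 4 gave 0.418. The ranges overlap, so they do not establish the pairing by slide. Each slide held 1 array per group, and the slide as a block is given for all genes, for many of the lists and for some single genes. It also changed calls of genes and lists for which it is not given. Alternatives were scaling, background correction, the dim filter, probe averaging, array weights, the arrays in the fit and leaving out each array, and those by slide pair were chosen after seeing the data. A few list members are counted but not reported here by name. The procedure was tested on simulated data.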

Additional observations from a re-analysis of the deposited data

Results flagged for a closer look

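Among 300 groups of 4 arrays examined over the named genes, 11 held 1 array far from the other 3 by Dixon's critical value of 0.829, where chance gives about 1 in 20. Of CCR2+ arrays, Fn1 was low on replicate 4 (0.13), Cxcl16 was high on replicate 1 (3.66) and Itgb7 was high on replicate 3 (2.31). MHC-IIlo replicate 4 was low for Ear12 (-4.70) and Cd209g (-3.31). MHC-IIlo replicate 1 was low for Ccl17 (-2.88) and Dpp4 (-4.24), and high for Maf (3.95), Ephx1 (2.93) and Ang4 (2.63). MHC-IIlo replicate 2 was low for Batf3 (0.20). The cause was not tested.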

How the results depend on the processing

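The 607 genes called between CCR2+ and MHC-IIlo macrophages became 1255 with the slide as a block (the paired analysis), 1210 with array weights, 379 under median scaling, 331 in a fit to the 8 arrays alone (706 with the slide as a block there, 336 higher and 370 lower, of which 433 were among the 607), 304 on slides 2 and 4 and 67 on slides 1 and 3, the slide pairs having been chosen after seeing the data. Leaving out single arrays gave 406 to 656. The 4 genes called for MHC-IIHi against the midpoint became 32 with the replicate block, 124 with array weights, 19 under quantile normalization, 12 with a trended and robust prior, 10 under normexp, 7 with probes averaged, 1 on slides 2 and 4 and 0 on slides 1 and 3, and 2 to 6 with single arrays left out. The cause of these shifts was not tested, and the smaller fits also hold fewer arrays. Of 150 named genes called, 99 were called with each of the 8 arrays left out. With the fits to slide pairs left aside, 89 were called under all other settings, 86 throughout, and 0 reversed. Slides 2 and 4 alone kept 205 of the 607 calls, and slides 1 and 3 alone kept 63. The fit to the 8 arrays with the block ended 30 of the 150 calls (adjusted p up to 0.144). Signal over background limits genes seen in 1 group to bounds, and 4 arrays per group limit the precision.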

Other observations

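The following gene families were picked after their values were seen and are descriptions. Secreted ribonucleases of the RNase A family were called in opposite directions. Besides Ear2, Ear1 and Ear12, CCR2+ macrophages had more Ear10 (4.06-fold, 2.02 ± 0.27, limma adjusted p = 0.000477) and more Rnase2a (1.81 ± 0.25). The angiogenin branch was lower. Rnase4 stood at 2.15, 2.00, 2.46 and 2.12 in CCR2+ macrophages, against 4.18, 3.67, 4.01 and 3.75 in MHC-IIlo macrophages (-1.72 ± 0.26, adjusted p = 0.00127), and Ang2 (-1.45 ± 0.26) and Ang4 (-1.66 ± 0.25) fell with Ang. Each of these calls held with any single array left out, and cross-hybridisation between family members was not tested.

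Other members of the Klrb1 cluster followed Klrb1a and Klrb1. Klrb1b exceeded its MHC-IIlo level 10.1-fold in CCR2+ macrophages (3.34 ± 0.54, adjusted p = 0.00211), and the pseudogene Klrb1-ps1 10.7-fold (3.42 ± 0.39, adjusted p = 0.000119). The probes share runs of at most 7 bases with each other, but were not compared with the transcripts of the related genes.

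Beside the hyaluronan receptor Lyve1, the hyaluronidase Hyal2 was 3.63-fold lower (-1.86 ± 0.28, adjusted p = 0.00131). Cdkn2a, which encodes cell cycle inhibitors, stood at -3.46, -2.70, -3.25 and -3.32 in CCR2+ macrophages, against -1.12, -0.21, -0.18 and -0.70 in MHC-IIlo macrophages (-2.63 ± 0.45, adjusted p = 0.00373). The antibody recycling receptor Fcgrt was 3.97-fold lower (-1.99 ± 0.27) and the secreted glutathione peroxidase Gpx3 4.92-fold lower (-2.30 ± 0.35).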
